A study of Mus musculus with 6 samples.

Results

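The heparan sulfate sulfotransferase genes examined here are Ndst1, Ndst2, Ndst3, Ndst4, Hs3st1, Hs3st2, Hs3st3b1, Hs3st4 and Hs3st5, which are 9 of the 32285 genes in the count matrix. They were chosen by measured levels in these same data, because Hs3st2, Hs3st4 and Ndst4 led sets of genes of excitatory neurons, and the related genes were added by name. Their levels are therefore given as a description, with no test. The data are single-nucleus RNA counts (snRNA-seq), obtained from droplets meant to hold 1 nucleus each, from frozen forebrains of 6 mice of postnatal day 16, 3 of them WT and 3 Npc1-/-. The mutant mice carried the Npc1 nih null allele on both chromosomes. All mice were untreated F1 hybrid littermates of the BALB/cJ and C57BL6/J strains. The study used males and females, but the sources used here do not give the sex of these 6 mice. The 6 libraries were joined in 1 matrix in which each barcode carries a suffix from 1 to 6, and the sources used here do not link suffixes to mice. No comparison of genotypes was therefore made, and each library is named by its suffix.

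Heparan sulfate is a long sugar chain attached to core proteins such as syndecans and glypicans, and it binds growth factors, guidance molecules and synaptic adhesion proteins at the cell surface. The pattern of sulfate groups along the chain sets what it binds. The NDST enzymes act early, removing acetyl groups from glucosamine and putting sulfate on the freed nitrogen, and later sulfation depends on the regions they modify. The HS3ST enzymes act late and add a rare sulfate at the 3-O position of glucosamine. NDST1 and NDST2 are the broadly used N-deacetylase/N-sulfotransferases, whereas NDST3 and NDST4 are known for restricted expression. In brain, HS3ST2 and HS3ST4 are the forms most associated with neurons.

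In the GENCODE annotation of the GRCm38 build, all 9 are protein-coding genes. Ndst3 (3:123526166-123690853, minus strand) and Ndst4 (3:125404076-125728899, plus strand) lie 1.71 Mb apart on chromosome 3, and Hs3st2 (7:121391859-121501770, plus strand) and Hs3st4 (7:123982869-124398989, plus strand) lie 2.48 Mb apart on chromosome 7. Hs3st1 is on chromosome 5, Hs3st5 on 10, Hs3st3b1 on 11, Ndst2 on 14 and Ndst1 on 18. Gene length ran from 10.8 kb for Ndst2 to 416.1 kb for Hs3st4, and because nuclear RNA holds much intronic sequence, levels are compared here between types for the same gene and not between genes. Hs3st2 is overlapped on the opposite strand by Gm36736 and 4933432K03Rik, Hs3st4 by Gm15338 on the same strand and Gm27040 on the opposite strand, and Ndst1 by Rps14 on the opposite strand. The sources used here do not say whether reads were assigned by strand, so reads from the stretches that these genes share with their partners cannot be told apart.

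The 250 bases before the RefSeq start (GRCm38.p6) are shown for Hs3st2, Hs3st4 and Hs3st5, the 3-O-sulfotransferases whose highest summed level among named types fell in the same cortical type, for Hs3st5 with an interval that overlaps the next type. Capitals mark the GC box (GGGCGG on either strand) and the cAMP response element (TGACGTCA), and TATAAA was searched on both strands and is in none of the 3 windows.
Hs3st2, chr7:121392046-121392295, plus strand: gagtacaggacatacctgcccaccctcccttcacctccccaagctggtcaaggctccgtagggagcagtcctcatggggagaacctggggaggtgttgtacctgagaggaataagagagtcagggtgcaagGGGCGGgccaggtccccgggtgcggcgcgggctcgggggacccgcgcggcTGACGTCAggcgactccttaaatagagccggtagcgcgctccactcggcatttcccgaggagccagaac
Hs3st4, chr7:123982578-123982827, plus strand: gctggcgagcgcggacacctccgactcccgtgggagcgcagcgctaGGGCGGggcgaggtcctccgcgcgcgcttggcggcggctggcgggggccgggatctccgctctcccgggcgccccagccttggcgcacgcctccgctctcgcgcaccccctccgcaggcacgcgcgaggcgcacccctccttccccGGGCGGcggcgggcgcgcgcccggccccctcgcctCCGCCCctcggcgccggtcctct
Hs3st5, chr10:36506557-36506806, plus strand: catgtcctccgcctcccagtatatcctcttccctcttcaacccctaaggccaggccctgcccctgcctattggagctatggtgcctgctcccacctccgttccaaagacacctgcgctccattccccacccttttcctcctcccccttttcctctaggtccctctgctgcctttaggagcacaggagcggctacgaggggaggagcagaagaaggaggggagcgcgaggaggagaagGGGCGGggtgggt
Of 32851 windows of this length in the RefSeq table, 32.7% hold the GC box, 1.55% the cAMP response element and 12.4% TATAAA. Hs3st2 holds 1 GC box and 1 response element, Hs3st4 3 GC boxes and Hs3st5 1. The Hs3st4 window has 43 CpG dinucleotides, against 17 for Hs3st2, 8 for Hs3st5 and a median of 6 over all windows. The Hs3st2 window lies after the GENCODE start of the gene (121391859), and within Gm36736 on the opposite strand. It is thus upstream of the RefSeq start only, and 6 of its bases are in GENCODE exons. A match is a description of the letters and not a site of binding.

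Libraries held 8217 to 16118 barcodes each, with 51343653 to 107583300 unique molecular identifiers (UMIs, 1 per captured transcript) and median counts of 4469 to 5439 UMIs per nucleus. Clustering, with the 9 genes and the other heparan sulfate genes left out, gave 53 clusters, of which 35 received 1 of 30 type names from marker lists. Neuroblast-like and dividing cells were counted neither as neuron nor as non-neuronal types. Orders of levels are over the 30 named types, and unnamed clusters held higher levels of Hs3st4, Hs3st5 and Hs3st3b1. The 18 unnamed clusters held 27.0% of nuclei (23.8% to 29.5% per library). Of 75245 barcode sequences, 631 occurred in more than 1 library. Levels are given as CPM, with the UMIs of a gene and all UMIs each added up within a type and the first scaled to 1000000 of the second, and the interval in brackets is the exact 95% Poisson interval, which covers counting error only.

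**Figure D1:**
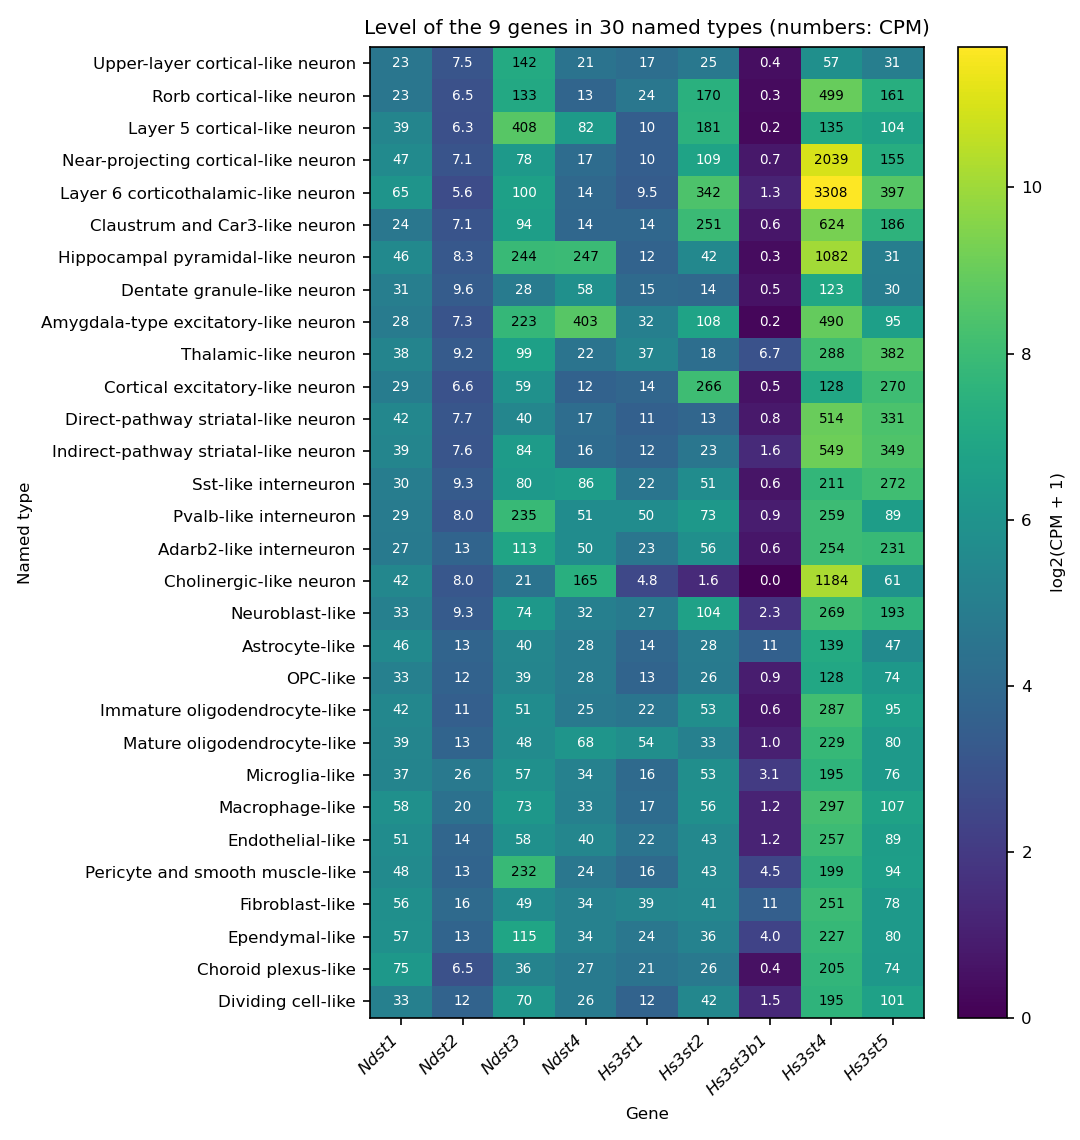
Level of each gene (columns) in each of 30 named types (rows), in CPM over all 6 libraries as numbers and as log2(CPM + 1) in colour. Hs3st4 in layer 6 corticothalamic-like neurons, at 3308 CPM, is the highest value, and Hs3st3b1 stays below 12 CPM in every type.

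Hs3st4, which encodes a 3-O-sulfotransferase, was, of the named types, highest in layer 6 corticothalamic-like neurons, the cortical cells that project to the thalamus, at 3308 CPM (3285 to 3331). Libraries 1 to 6 gave 3377, 3224, 3472, 3240, 3194 and 3320 CPM there. Near-projecting cortical-like neurons followed at 2039 CPM (1734 to 2476 over the libraries). The ranges of these types did not overlap, and the layer 6 type was highest in 6 of 6 libraries.
Cholinergic-like neurons had 1184 CPM from only 54 nuclei, and hippocampal pyramidal-like neurons 1082 CPM (869 to 1439 over the libraries), so their ranges overlapped. The pyramidal value joined unlike clusters. The cluster led by Il16, Rnf182 and Grik4 (498 nuclei) had 2166 CPM, and the cluster led by Gm2115, Gpr161 and Fibcd1 (859 nuclei) had 408 CPM. The latter scored about as high for the amygdala-type markers (0.965) as for the pyramidal markers (0.907, the mean level of a list in units of the SD over clusters). Their ranges over the libraries, 1781 to 2721 and 337 to 456 CPM, did not overlap.
Upper-layer cortical-like neurons were lowest of the 30 types at 56.5 CPM (27.8 to 113 over the libraries), below layer 5 cortical-like neurons at 135 CPM (71.6 to 218), whose range overlaps theirs. Rorb cortical-like neurons, at 499 CPM (466 to 544), lay above both in every library.
For shares of nuclei with a UMI, each nucleus was thinned to 2000 UMIs and shallower nuclei were left out, among them 12 of 2662 layer 6 corticothalamic-like, 1071 of 2864 microglia-like, 387 of 3314 endothelial-like and 948 of 8289 astrocyte-like nuclei. Shares in the glial and vascular types thus rest on their deeper nuclei. For Hs3st4, 97.2% of layer 6 corticothalamic-like nuclei (96.5% to 97.8%, exact Clopper-Pearson 95% interval) had a UMI, and 98.7% had one unthinned. The thinned share was 90.1% in near-projecting-like and 9.61% in upper-layer-like nuclei. Microglia-like and endothelial-like nuclei were taken as a background, and that they lack the transcript was not tested. They had 29.1% and 25.9% thinned, at median depths of 2258.5 and 3296 UMIs against 8169.5 UMIs in the layer 6 type. The upper-layer share lies below these over all libraries, so no expression is read from it, although by library the ranges overlap (4.56% to 20.5% in upper-layer-like and 10.1% to 38.1% in endothelial-like nuclei).

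Hs3st2, whose product makes a 3-O-sulfated motif abundant on neurons, was, of the named types, also highest in layer 6 corticothalamic-like neurons, at 342 CPM (334 to 349). Libraries 1 to 6 gave 267, 333, 413, 379, 359 and 271 CPM. Cortical excitatory-like neurons had 266 CPM and claustrum and Car3-like neurons 251 CPM. The layer 6 type exceeded the cortical excitatory-like type in 6 of 6 libraries, although the ranges overlapped (226 to 332 CPM in the latter), and it exceeded every other named type in each library.
The cortical excitatory-like name again covered unlike clusters. The cluster led by Dnah14, Sulf1 and Rspo2 (1239 nuclei) had 355 CPM of Hs3st2, above the 342 CPM of the layer 6 type. The cluster led by Tshz2 and Pappa (551 nuclei) had 12.8 CPM. The first place of the layer 6 type thus holds over types and not over clusters. Among Rorb cortical-like neurons, the cluster led by Il1rapl2 and Gm36251 had 248 CPM and that led by Rorb and Kcnh5 had 79.8 CPM, with ranges over the libraries of 214 to 277 and 68.7 to 108 CPM. These differences were larger than the spread over libraries.
Upper-layer cortical-like neurons were again low, at 24.6 CPM, beside thalamic-like neurons at 17.8 CPM and direct-pathway striatal-like neurons at 13.3 CPM. Neuroblast-like nuclei, named from markers of newborn neurons, had 104 CPM, but libraries ranged from 27.8 to 125 CPM. In thinned nuclei the share with an Hs3st2 UMI was 40.8% in the layer 6 type (76.1% unthinned), against 8.87% in microglia-like and 6.70% in endothelial-like nuclei.

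Hs3st5, which encodes a 3-O-sulfotransferase of broader substrate use, spread over cortex, thalamus and striatum. Its level was 397 CPM in layer 6 corticothalamic-like, 382 in thalamic-like, 349 in indirect-pathway striatal-like and 331 in direct-pathway striatal-like neurons. Libraries gave 368 to 439, 328 to 409, 313 to 380.4 and 270 to 370 CPM in that order, so these neighbours overlap. Of the cortical excitatory-like clusters, the one led by Dnah14 and Sulf1 had 352 CPM and the one led by Tshz2 and Pappa 37.4 CPM, the same order as for Hs3st2. Upper-layer cortical-like neurons (31.3 CPM), hippocampal pyramidal-like neurons (31.0 CPM) and dentate granule-like neurons, just below them, were lowest. Thinned shares were 46.4%, 45.4%, 42.2% and 42.1% in the 4 highest types, against 14.2% in microglia-like and 12.6% in endothelial-like nuclei.

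Hs3st1, the 3-O-sulfotransferase known for the antithrombin-binding site of heparin, was highest in mature oligodendrocyte-like cells (54.1 CPM, 50.8 to 57.7) and Pvalb-like interneurons (50.1 CPM, 46.4 to 54.1). Libraries 1 to 6 gave 56.8, 55.3, 27.1, 36.6, 61.7 and 59.7 CPM in the former and 59.7, 54.8, 46.3, 36.0, 48.0 and 58.4 CPM in the latter. The intervals and ranges overlap, and the order held in 4 of 6 libraries. Fibroblast-like cells had 39.4 CPM, which came from the cluster led by Bnc2 and Slc47a1 (578 nuclei, 98.5 CPM, 68.7 to 166 over the libraries) more than from the cluster led by Slc6a20a and Slc6a13 (1676 nuclei, 15.1 CPM, 10.4 to 18.0). Layer 6 corticothalamic-like neurons were near the bottom of the order for this gene at 9.47 CPM.
Thinned shares with an Hs3st1 UMI were 10.1% in mature oligodendrocyte-like (24.6% unthinned) and 8.85% in Pvalb-like nuclei, against 3.29% in microglia-like and 4.68% in endothelial-like nuclei.

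Hs3st3b1 encodes a 3-O-sulfotransferase known for the herpesvirus entry receptor form of heparan sulfate, and it was scarce, with 1161 UMIs in all. Astrocyte-like cells had 10.9 CPM (9.75 to 12.1) and fibroblast-like cells 10.8 CPM (8.96 to 12.8). Astrocyte values of libraries 1 to 6 were 11.5, 9.88, 10.9, 9.89, 12.5 and 12.1 CPM, whereas fibroblast values ran from 3.07 to 20.5 CPM. Here the fibroblast signal was in the cluster led by Slc6a20a (14.5 CPM) and not in that led by Bnc2 (1.79 CPM), the reverse of Hs3st1. Thalamic-like neurons had 6.71 CPM (2.61 to 9.31 over the libraries), neuroblast-like cells had 2.26 CPM, and the remaining neuron types had at most 1.62 CPM. Cholinergic-like neurons had no UMI, which allows up to 3 counts over their 54 nuclei. In thinned nuclei 2.30% of astrocyte-like nuclei had a UMI, against 0.335% of microglia-like and 0.239% of endothelial-like nuclei.

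Ndst4 was highest in amygdala-type excitatory-like neurons at 403 CPM (395 to 411), with 554, 369, 341, 258, 400 and 538 CPM in libraries 1 to 6. Hippocampal pyramidal-like neurons followed with 247 CPM (216 to 265 over the libraries), and the amygdala type exceeded them in 5 of 6 libraries, all but library 4. The amygdala type was the highest of all named types in 4 of 6 libraries. Within the pyramidal type, the Fibcd1 cluster had 375 CPM (358 to 399 over the libraries) and the Grik4 cluster 39.9 CPM (20.3 to 74.4), the opposite order to Hs3st4. In libraries 3 and 4 the amygdala type, at 341 and 258 CPM, lay below the whole range of the Fibcd1 cluster. Its lead over the pyramidal type thus rests in part on the joining of these clusters.
Sst-like interneurons had 86.1 CPM, layer 5 cortical-like neurons 81.6 CPM and mature oligodendrocyte-like cells 68.4 CPM. Layer 6 corticothalamic-like neurons, the highest named type for Hs3st2 and Hs3st4, had 14.3 CPM. In cholinergic-like neurons library 1 gave 580 CPM and the others 20.3 to 220 CPM, with as few as 3 nuclei in a library. Thinned shares were 31.9% in the amygdala type (52.4% unthinned) and 25.9% in the pyramidal type, against 7.42% in microglia-like and 6.32% in endothelial-like nuclei.

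**Figure D2:**
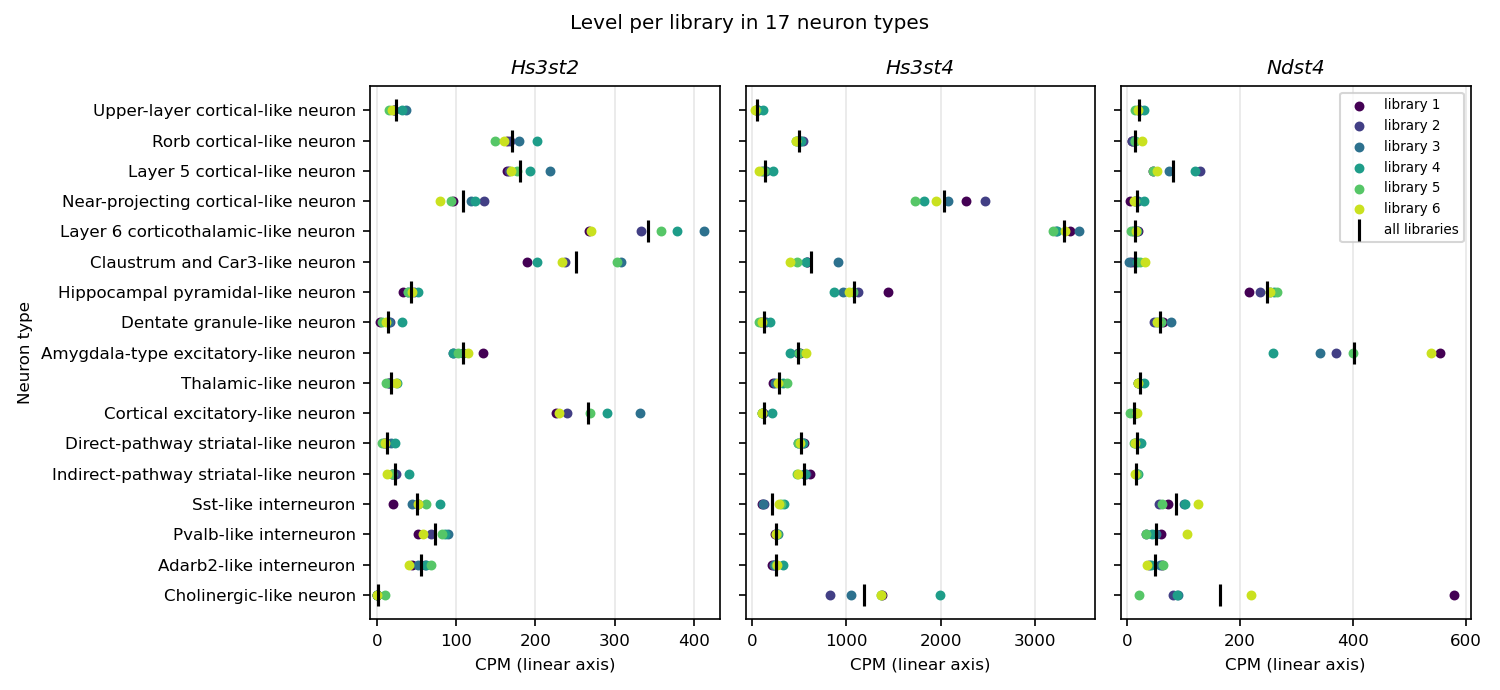
Level of Hs3st2, Hs3st4 and Ndst4 in CPM (linear axes) in 17 neuron types, with 1 coloured point per library and a black bar for all libraries together. The 6 Hs3st4 points of layer 6 corticothalamic-like neurons, 3194 to 3472 CPM, lie apart from all others, and the Ndst4 points of amygdala-type excitatory-like neurons spread from 258 to 554 CPM.

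Ndst3 was highest in layer 5 cortical-like neurons, at 408 CPM (395 to 422), with 418, 435, 360, 382, 449 and 391 CPM in libraries 1 to 6. Hippocampal pyramidal-like neurons (244 CPM), Pvalb-like interneurons (235 CPM), pericyte and smooth muscle-like cells (232 CPM) and amygdala-type excitatory-like neurons (223 CPM) came next. The layer 5 range lay above those of the pyramidal and Pvalb types, while the pericyte range, 194 to 406 CPM, reached into it. Again the pyramidal level was that of the Fibcd1 cluster (370 CPM) and not of the Grik4 cluster (40.5 CPM). The level of the Fibcd1 cluster lay inside the layer 5 range, so the separation holds for the joined pyramidal type only.
The pericyte and smooth muscle-like value was the highest Ndst3 level outside neurons, followed by ependymal-like cells at 115 CPM. The 6 libraries gave 233, 241, 194, 227, 406 and 306 CPM, from as few as 42 nuclei in a library. Thinned, 35.5% of these nuclei had an Ndst3 UMI (49.0% unthinned), against 10.7% of microglia-like and 7.89% of endothelial-like nuclei.

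Ndst1 and Ndst2 differed less between types. Ndst1 ran from 22.8 CPM in upper-layer cortical-like neurons to 75.3 CPM in choroid plexus-like cells, with layer 6 corticothalamic-like neurons second at 65.3 CPM. No neighbours among the 30 types had separate counting intervals for either gene. Ndst2 ran from 5.58 CPM in layer 6 corticothalamic-like neurons to 25.8 CPM in microglia-like cells, where libraries gave 24.8, 20.3, 22.3, 23.5, 36.7 and 41.9 CPM. Macrophage-like cells, a related myeloid type, had 19.7 CPM.
A specificity index, which is 0 for an even gene and 1 for a gene found in 1 type, was 0.48 for Ndst1, 0.62 for Ndst2, 0.64 for Hs3st1, 0.66 for Hs3st5, 0.77 for Ndst3, 0.80 for Hs3st2, 0.88 for Hs3st4 and 0.89 for Ndst4. Its median was 0.68 over 42 other heparan sulfate genes and 0.56 over 14948 genes with at least 1000 UMIs. The choice of Hs3st2, Hs3st4 and Ndst4 for leading neuron sets bears on their index, so nothing is read from it. The index rises with sampling noise in scarce genes such as Hs3st3b1 (0.85).

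For the comparison of groups of types, a gene was counted as higher or lower where the CPM ratio was at least 2-fold and had the same sign in 6 of 6 libraries. All 20524 genes with at least 100 UMIs served as background. The excitatory over GABAergic contrast is the one the choice of genes used, so nothing is read from it. There 4.73% of all genes were higher and 5.26% lower, and of the 9 genes 3 were higher (Hs3st2, Hs3st4 and Ndst4) and 0 lower. Hs3st2 had 143 CPM in excitatory against 38.5 CPM in GABAergic types (log2 ratio 1.89), and Ndst4 had 89.2 against 39.0 CPM (log2 ratio 1.19, with 0.88 and 0.78 in libraries 4 and 6 and 0.89 at a finer clustering). The summed GABAergic level of Hs3st2 lies below microglia-like (53.2 CPM) and endothelial-like cells (43.4 CPM). That of Ndst4 lies between these cells (34.5 and 39.8 CPM). No expression is read from these 2 summed levels, on which the ratios rest. Hs3st4, at 807 against 399 CPM, was only just past 2-fold (log2 ratio 1.02, 1.00 to 1.04), with 0.91 and 0.92 in libraries 4 and 5. It fell below 2-fold without library 3 (0.99), at a coarser clustering (0.87) and where the heparan sulfate genes entered the clustering (0.83). Next below the limit, but well short of it, Ndst3 had a log2 ratio of 0.51, and 1.03 at the coarser clustering. Hs3st5 was the other way, at 177 against 261 CPM (log2 ratio -0.56, lower in 6 of 6 libraries). The GABAergic sum joins unlike types for this gene. Direct-pathway (2512 nuclei) and indirect-pathway striatal-like neurons (1813 nuclei) had 331 and 349 CPM, and Pvalb-like interneurons (1400 nuclei) had 88.9 CPM, below the excitatory level.

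Deep-layer types (layer 5, near-projecting and layer 6 corticothalamic-like) were compared with upper types (upper-layer and Rorb cortical-like). Over all genes 3.91% were higher and 3.34% lower in the deep layers. Of the 9 genes 5 were higher (Hs3st2, Hs3st3b1, Hs3st4, Hs3st5 and Ndst1) and 1 was lower (Hs3st1). The choice of genes bears on this contrast too, because Hs3st4 is among the 10 leading genes of the layer 6 corticothalamic-like cluster, so the count is a description and nothing is read from it against the background. Hs3st4 had 2417 against 305 CPM, a 7.93-fold ratio (log2 2.99, 2.82 to 3.19 over the libraries).
Hs3st5 had 301 against 104 CPM (log2 ratio 1.53), Hs3st2 278 against 107 CPM (1.38) and Ndst1 57.1 against 22.9 CPM (1.32), each higher in 6 of 6 libraries. The upper Ndst1 level lies below microglia-like (37.3 CPM) and endothelial-like cells (50.8 CPM). No expression is read from that level, on which the Ndst1 ratio rests. Hs3st1 went the other way, with 9.74 against 21.0 CPM (log2 ratio -1.11, lower in 6 of 6 libraries). The deep-layer Hs3st1 level lies below microglia-like (15.6 CPM) and endothelial-like cells (21.9 CPM), and no expression is read from it. The upper level lies between those of the microglia-like and endothelial-like cells. Rorb cortical-like neurons had 23.8 CPM (22.3 to 25.5), with an interval that overlaps the endothelial-like one (19.6 to 24.4), so no expression is read there either. Hs3st3b1 rested on 20 UMIs in the upper types (log2 ratio 1.63, interval 0.80 to 2.49). Its levels, 0.950 against 0.308 CPM, lie below microglia-like (3.08 CPM) and endothelial-like cells (1.21 CPM), so no expression is read there either. Ndst2 and Ndst3 differed by less than 2-fold and changed sign between libraries, and Ndst4 (log2 ratio 0.88) was higher in 6 of 6 libraries but below 2-fold. The summed Ndst4 levels, 30.4 against 16.6 CPM, lie below microglia-like (34.5 CPM) and endothelial-like cells (39.8 CPM). The deep-layer group holds 2662 layer 6 corticothalamic-like, 738 layer 5 and 478 near-projecting nuclei, and most of its UMIs of Hs3st2, Hs3st4 and Hs3st5 came from the first. Layer 5 cortical-like neurons gave 3657 of the 6452 deep-layer Ndst3 UMIs and 731 of the 1154 Ndst4 UMIs. Layer 5 cortical-like neurons had little Hs3st4 and the highest Ndst3. Hs3st5 was at 104 CPM in layer 5 and 155 CPM in near-projecting cortical-like neurons, no higher than in Rorb cortical-like neurons (161 CPM). Hs3st2 was at 109 CPM in the near-projecting type and 181 CPM in layer 5, beside 170 CPM in the Rorb type.

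In the striatum, direct-pathway and indirect-pathway neurons differ in their dopamine receptors and targets. Over all genes 0.794% were higher and 0.526% lower in the direct-pathway type. Of the 9 genes only Ndst3 was counted, at 39.7 against 84.2 CPM in direct-pathway and indirect-pathway-like neurons (log2 ratio -1.09, -1.22 to -0.95). Libraries 1 to 6 gave -1.17, -1.46, -0.72, -0.48, -1.36 and -1.78. In thinned nuclei the Ndst3 share was 6.52% against 14.6%, and the former is no higher than in endothelial-like nuclei (7.89%). Hs3st2 was lower in 6 of 6 libraries but by less than 2-fold (13.3 against 23.1 CPM, log2 ratio -0.80), and both levels lie below those of microglia-like (53.2 CPM) and endothelial-like cells (43.4 CPM), so no expression is read from them. Hs3st4 (514 against 549 CPM) and Hs3st5 (331 against 349 CPM) were high in both, with log2 ratios of -0.09 (-0.14 to -0.05) and -0.08 (-0.13 to -0.02).

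Along the oligodendrocyte lineage, from precursor (OPC-like) to mature oligodendrocyte-like cells, 6.07% of all genes were higher and 6.56% lower in the mature type. Hs3st1 had 54.1 against 12.6 CPM, a 4.29-fold ratio (log2 interval 1.85 to 2.36), with log2 values of 1.88, 2.28, 1.12, 1.28, 2.46 and 2.84 in libraries 1 to 6. Ndst4 had 68.4 against 28.1 CPM (log2 ratio 1.29), with 0.29 to 2.01 over the libraries. The OPC-like levels of these genes lie below microglia-like (Hs3st1 15.6, Ndst4 34.5 CPM) and endothelial-like cells (21.9 and 39.8 CPM). No expression is read from these OPC-like levels, on which the ratios rest. The other 7 genes were not counted, and 0 of the 9 were lower. Immature oligodendrocyte-like cells lay between for Hs3st1 (22.5 CPM) but not for Ndst4 (25.4 CPM). With TMM scaling, which centres the bulk of genes, the background split moved from 1245 higher and 1347 lower to 1497 and 1006, and leaving out the 10% of nuclei with the highest doublet scores moved it to 1254 and 2055.

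**Figure D3:**
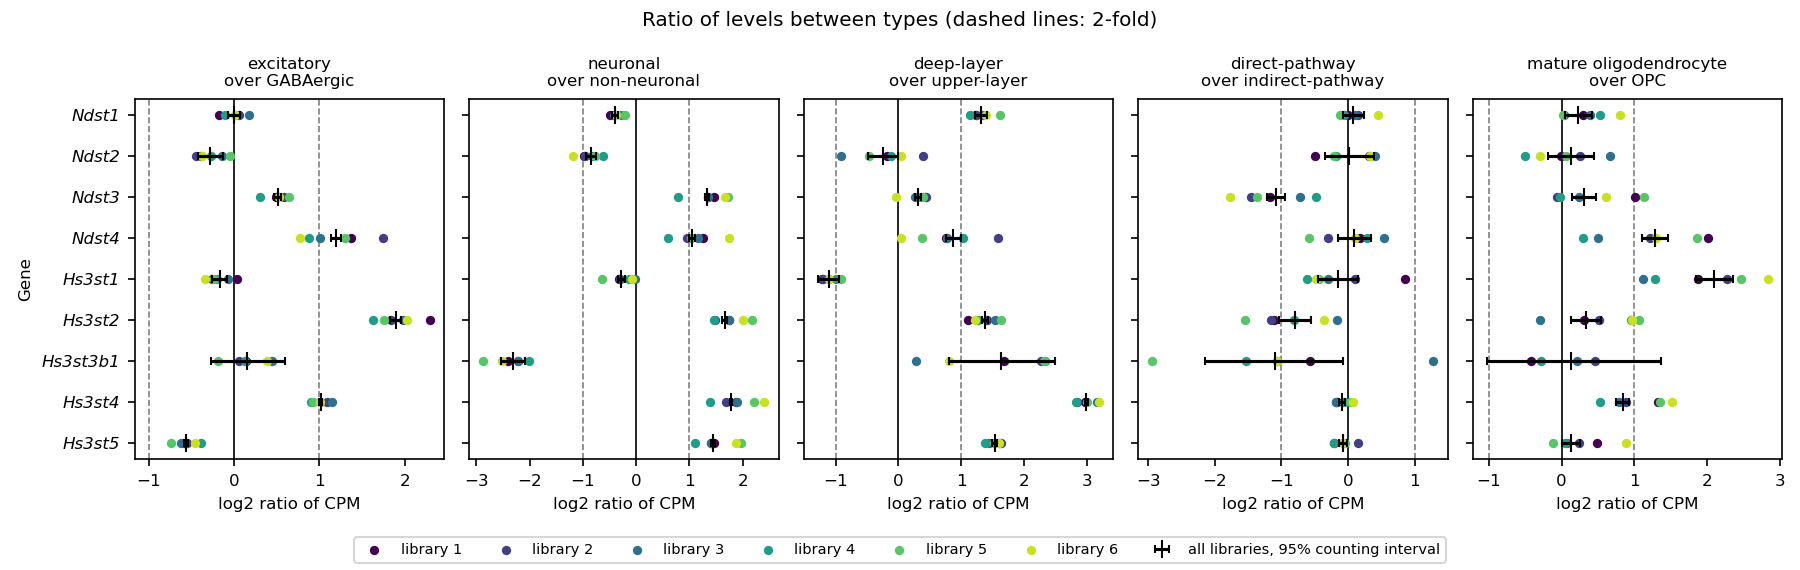
Log2 ratio of CPM for the 9 genes in the 5 comparisons, with coloured points for the libraries, a black bar with its 95% counting interval for all libraries, and dashed lines at 2-fold. In the deep-layer panel Hs3st4 stands at 2.99 and Hs3st1 at -1.11, and in the oligodendrocyte panel the Hs3st1 points run from 1.12 to 2.84.

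All named neuron types together were compared with 11 non-neuronal types. The largest neuron cluster (4460 nuclei, led by Baiap3 and Rmst) scored for subcortical Slc17a6 and GABAergic lists, stayed unnamed and entered no comparison. Over all genes 7.11% were higher and 29.0% lower in neurons (1459 and 5952 genes), a split that TMM scaling moved to 2921 and 3625, because it subtracts a shift of -0.49 from the log2 ratios. Excitatory types make up most of the neuronal sum, so the choice of Hs3st2, Hs3st4 and Ndst4 bears on this contrast too and nothing is read from the count against the background. Of the 9 genes 5 were higher in neurons: Hs3st4 at 700 against 203 CPM (log2 ratio 1.79), Hs3st2 at 115 against 36.6 CPM (1.66), Hs3st5 at 199 against 73.2 CPM (1.44), Ndst3 at 137 against 54.6 CPM (1.32) and Ndst4 at 76.0 against 36.8 CPM (1.05). The Ndst4 ratio was under 2-fold without library 1 (1.00) or library 6 (0.99) and at the finer clustering (0.89). Hs3st3b1 was lower, at 0.995 against 4.95 CPM (log2 ratio -2.32). Ndst2 had 7.57 against 13.7 CPM (log2 ratio -0.85), below 2-fold. Ndst1 (log2 ratio -0.40) and Hs3st1 (-0.28) were lower in 6 of 6 libraries, but TMM scaling turned both, to 0.10 and 0.21.

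Transcripts of 8 genes that are typical of neurons were also found in non-neuronal types (Syt1, Snap25, Rbfox3, Rbfox1, Snhg11, Meg3, Syn1 and Stmn2). The CPM of these 8 genes in all non-neuronal types stood at 27.2% to 105% of their neuronal CPM, with Stmn2 highest. Stmn2 was thus no higher in neurons here, and the next gene, Syn1, stood at 55.7%. A level inside the range of the 8 can therefore still lie well above most of them. Hs3st4 in non-neuronal types stood at 18.8% to 38.3% of its neuronal level by library, while the median of the 8 genes ran from 29.0% to 51.3%, and both were highest in library 4. Hs3st3b1 went the other way, with its lowest share in library 4 (402%) and its highest in library 5 (731%), where the median of the 8 genes was lowest. The part of neuronal RNA in the non-neuronal levels was not tested.
Hs3st2, Hs3st4 and Hs3st5 were inside or below the range of the 8 genes in all 11 non-neuronal types, and no expression is read from those levels. Ndst3 was inside or below it in 10 of the 11, and in pericyte and smooth muscle-like cells stood at 170% of its neuronal level, above all 8 genes (36.4% to 133%). In ependymal-like cells Ndst3 was inside the range at 83.8%, but well above the median of the 8 genes there (37.1%). Ndst4 in mature oligodendrocyte-like cells, at 68.4 CPM against 76.0 CPM in neurons, was above the range there (31.3% to 69.4%), and it was inside or below it in the other types.
Hs3st1 was above the range in mature oligodendrocyte-like (263%), fibroblast-like (192%), ependymal-like (115%), immature oligodendrocyte-like (109%) and choroid plexus-like cells (103%). Hs3st3b1 reached 1094% in astrocyte-like and 1082% in fibroblast-like cells. It was above the range of the 8 genes in all but OPC-like, immature oligodendrocyte-like and choroid plexus-like cells, on as few as 2 UMIs (macrophage-like cells). Ndst2 was highest at 341% in microglia-like cells but above the range in every non-neuronal type, only just in choroid plexus-like cells (85.9% against 82.2%). Ndst1 was above the range in all but OPC-like and microglia-like cells, and reached 217% in choroid plexus-like cells.

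**Figure D4:**
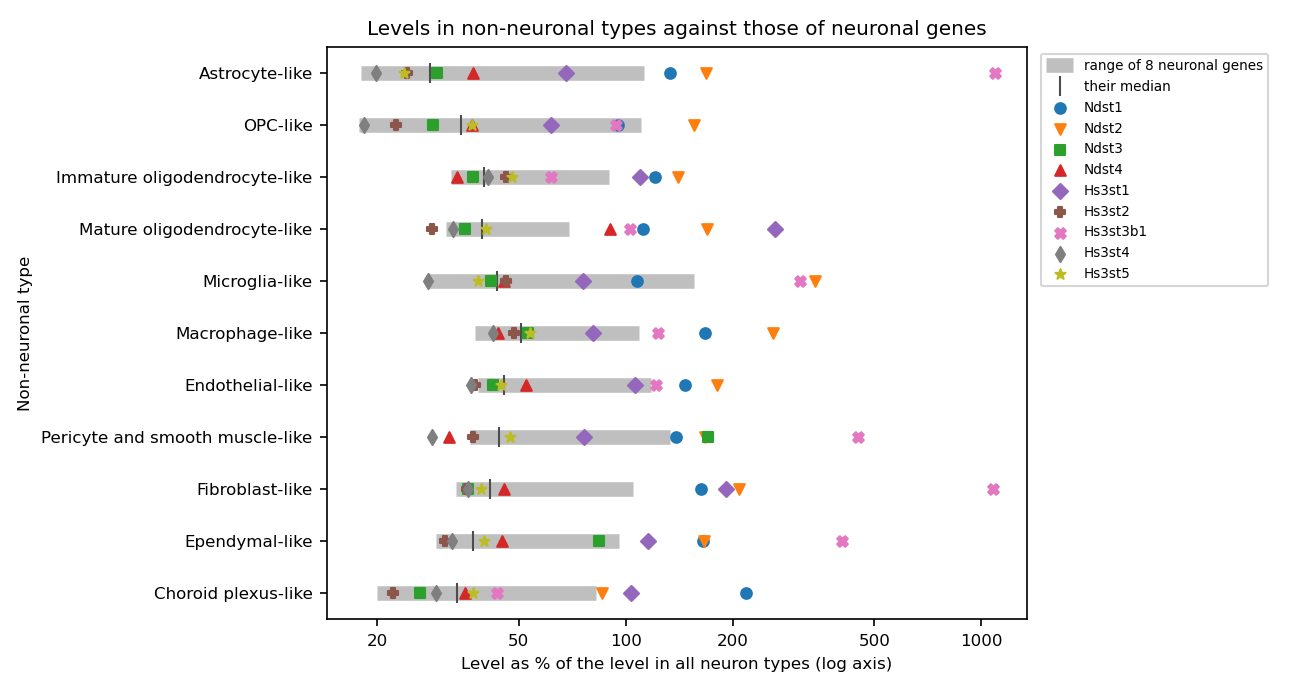
CPM of the 9 genes in 11 non-neuronal types as a percentage of their CPM in all neuron types (log axis), with a grey bar for the range and a dark mark for the median of 8 neuronal genes. Hs3st2, Hs3st4 and Hs3st5 fall in or below the grey bar in every row, whereas Hs3st3b1 reaches 1094% in astrocyte-like cells.

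The other heparan sulfate genes were counted by their step in the pathway, with 46 of 47 genes tested. In deep over upper layers 4 were higher and 4 lower, beside 3.91% and 3.34% of all genes. Of the genes listed as 6-O-endosulfatases and heparanases 3 of 4 were higher, led by Sulf1 (log2 ratio 3.10), an extracellular enzyme that removes 6-O-sulfate. Hpse2, listed by its name and not for a measured activity, was at 1.55 and Sulf2 at 1.05. Of the glypicans, core proteins anchored in the membrane, 3 of 6 were lower, with Gpc6 at 443 against 1806 CPM (log2 ratio -2.03), Gpc3 at -1.44 and Gpc5 at -1.23. The 6-O-sulfotransferase genes split, with Hs6st2 higher (1.09) and Hs6st3 lower (-1.67). Of the linkage, polymerase, epimerase, sulfate supply, syndecan, basement membrane and lysosomal genes 0 were counted.
In neurons over non-neuronal types 1 was higher, Hs6st3 (log2 ratio 1.64), and 16 were lower, beside 7.11% and 29.0% of all genes, the latter 5952 genes, or 3625 with TMM scaling, so that the lower share is near the background. Among the lower were 3 of 4 syndecans, 2 of 3 basement membrane core proteins and 4 of 8 genes of lysosomal breakdown. Hs3st3a1, the close paralog of Hs3st3b1, had 1.35 against 10.9 CPM (log2 ratio -3.01). The basement membrane core protein Hspg2 (perlecan) had a log2 ratio of -3.39, the syndecan Sdc4 -3.24, Gpc5 -2.97, Gpc2 -2.79 and the lysosomal sulfamidase Sgsh -2.34.
In mature oligodendrocyte-like over OPC-like cells 1 was higher and 9 were lower, beside 6.07% and 6.56% of all genes, the latter 1347 genes, or 2055 without the highest doublet scores. Xylt1, which starts the chain, had 154 against 2053 CPM (log2 ratio -3.74), Gpc5 619 against 2961 CPM (-2.26), Sdc3 13.8 against 57.5 CPM (-2.06) and Col18a1 2.67 against 10.7 CPM (-2.00). Arsg, a lysosomal sulfatase for the 3-O-sulfate that the HS3ST enzymes add, was the 1 higher gene, at 35.2 against 8.39 CPM (log2 ratio 2.07). In excitatory over GABAergic types 5 were higher (Xylt1, Ext1, Extl1, Gpc4 and Gpc5, log2 ratios up to 1.36) and 1 lower, the heparanase Hpse (-2.37). In direct-pathway over indirect-pathway neurons 1 was higher, Sulf1 at 67.0 against 31.6 CPM, and 0 were lower. The shares of all genes in these contrasts are given with the members. Genes of these lists under 4-fold are named after their values had been seen.

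The genes whose log2(CPM + 1) over the 30 types was most like that of each of the 9 were named by Pearson's r, which is a description over types that share libraries. For Hs3st2 the nearest were Gm36736 (r = 0.97) and 4933432K03Rik (r = 0.93), which both overlap it on the opposite strand, and Gm36251 (r = 0.89) on another chromosome. For Hs3st3b1 the nearest was Hs3st3a1 (r = 0.90), also on chromosome 11. These paralogs have closely similar sequence, so how their reads were divided is uncertain. Grin2c (0.83), a glutamate receptor subunit, and Tfcp2l1 (0.82) came next.
Hs3st5 was most like Anxa13 (0.80), Gm15943 (0.74) and Grm4 (0.73), and Ndst4 most like Gm34466 (0.74), 4930547E14Rik (0.74) and Popdc3 (0.71). Hsd3b2 (0.72) and St8sia5 (0.70) were among the 3 genes most like Ndst3. Hs3st1 was most like Adamts15 (0.71), Plekhh2 (0.67) and Plch2 (0.64), and Hs3st4 most like Cdh18 (0.65), Gm9866 (0.64) and A330102I10Rik (0.62). Ndst2 was most like Wdr26 (0.89), Wdr81 (0.89) and Eloa (0.88), and Ndst1 most like AW146154 (0.78), Peak1 (0.76) and Gpatch2 (0.71).
Among the 9 genes themselves, over the 17 neuron types, r was highest for Hs3st4 with Ndst1 (0.68) and lowest for Hs3st1 with Ndst1 (-0.54) and Hs3st5 with Ndst4 (-0.54). Hs3st2 and Hs3st4, which share their highest named type, had r = 0.09.

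Nuclei of 1 type could hold UMIs of both members of a pair, and a type can join unlike clusters. In thinned hippocampal pyramidal-like nuclei, 44.6% of the 410 nuclei with an Ndst3 UMI also had an Ndst4 UMI, against 17.7% of the 934 without. Within the Fibcd1 cluster alone the shares were 48.0% and 31.2%, and in the Grik4 cluster only 33 nuclei had an Ndst3 UMI. Hs3st4 was found in 47.4% of the 348 pyramidal-like nuclei with Ndst4 and in 61.6% of the 996 without, but in the Fibcd1 cluster the order was turned, at 46.5% and 39.7%, and in the Grik4 cluster it was 63.2% of 19 nuclei and 85.9% of 474. In layer 6 corticothalamic-like nuclei Hs3st4 was found in 98.1% of nuclei with Hs3st2 and in 96.6% of those without. The same pair gave 47.1% and 53.5% in Rorb cortical-like nuclei and 15.0% and 15.8% in cortical excitatory-like nuclei. The latter shares lie below those of microglia-like (29.1%) and endothelial-like nuclei (25.9%), so no expression is read from them. Both types join clusters unlike in Hs3st2, which were not split for this pair. In amygdala-type excitatory-like nuclei 44.7% of the 809 nuclei with Ndst4 had Ndst3, against 27.0% of the 1728 without.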

How the data were processed

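Nuclei of frozen forebrain were profiled by droplet snRNA-seq (10x Genomics, 3' chemistry). The authors deposited UMI counts, whole numbers that were not normalized. The sources name different software: Cell Ranger 6.0.0 per the file headers, Cell Ranger 2.1.1 in the submitters' processing notes and STARsolo in the study's methods, so the counting of introns and strand is uncertain. The methods also name EmptyDrops and DoubletFinder, and whether those filters preceded deposit is uncertain too. Barcodes with at least 10% mitochondrial UMIs were left out (11 of 75878).

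The 9 genes, the lists of heparan sulfate genes and the marker lists were chosen with earlier results of these data known. Leiden clustering (scanpy 1.11.5, leidenalg 0.10.2, resolution 1) used 3000 variable genes without the 56 heparan sulfate genes, 30 components and 20 neighbours, and neurons were clustered again. Names needed at least 3 and 50% of a list's markers 1.5-fold enriched. Clusters led by mitochondrial, haemoglobin or ribosomal genes, that tied between lists of 2 classes or had leading markers of 2 tied lists, or with a median Scrublet doublet score of at least 0.1 stayed unnamed. Other doublets were kept, and an alternative left out the 10% highest scores per library. The naming limits were chosen with the clusters already in view. Levels were sums of UMIs per type as CPM. Ratios carry exact binomial intervals at 95%, which, like all intervals here, cover counting error only. Ratio and interval code was tested on simulated counts. Named genes were the 9, list members past 4-fold (at most 3 per list) and the 3 genes most like each of the 9 among those with at least 1000 UMIs, of which 1 is not reported here. Python 3.11.15, numpy 2.4.6, scipy 1.17.1 and pandas 2.3.3 were used. Alternatives changed the resolution, the genes clustered, the nuclei kept, the scaling, the averaging and the libraries.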

Additional observations from a re-analysis of the deposited data

How the results depend on the processing

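No paired analysis was possible because the genotypes, which share the replicate numbers, could not be assigned to libraries. The ratios between types were paired by library, and no test was put on them because the genes were chosen from these data. The alternatives were run for the ratios of the excitatory over GABAergic and neuronal over non-neuronal comparisons and for the counts of genes. Of the alternative ratios 226 moved by less than the spread between libraries, 24 moved by more and 2, of ratios with the same sign in all libraries, reversed, and 92 counts stayed within 1.5 times while 8 did not. The causes were not tested, except that fewer genes were tested under the stricter filter and that TMM subtracts 1 shift from all ratios. For excitatory over GABAergic, resolution 0.5 gave log2 ratios of 0.59 for Hs3st1 (a change of sign from -0.17), 0.51 for Hs3st3b1, 0.87 for Hs3st4, -0.85 for Hs3st5, 1.03 for Ndst3 and 1.78 for Ndst4, and resolution 2 gave 2.38 for Hs3st2, 0.41 for Hs3st3b1, 1.16 for Hs3st4 and -0.37 for Hs3st5. Hs3st4 was at 0.83 with the heparan sulfate genes in the clustering, and Hs3st3b1 at -0.12 as a mean over nuclei, a change of sign from 0.15. Ndst1 lay so close to 0 in this comparison (-0.006) that its sign changed under 5 alternatives. For neuronal over non-neuronal, resolution 0.5 gave 1.19 for Hs3st2 and -1.91 for Hs3st3b1, and leaving out the highest doublet scores gave 2.06 for Hs3st2, 2.33 for Hs3st4 and 1.82 for Hs3st5. TMM scaling reversed Hs3st1 to 0.21 and Ndst1 to 0.096, and gave 2.15 for Hs3st2, -1.82 for Hs3st3b1, 2.28 for Hs3st4, 1.94 for Hs3st5, -0.36 for Ndst2, 1.82 for Ndst3 and 1.54 for Ndst4. With at least 1000 UMIs per gene, 571 genes were higher and 659 lower in excitatory types, 3904 lower in neurons, 447 lower in deep layers and 94 higher in direct-pathway neurons. TMM scaling gave 2921 genes higher and 3625 lower in neurons, and leaving out the highest doublet scores gave 2055 lower in mature oligodendrocyte-like cells. Resolution 0.5 gave no separate direct-pathway and indirect-pathway types. The scarce genes limit what can be seen: Hs3st3b1 rests on 1161 UMIs and cholinergic-like neurons on 54 nuclei.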

Other observations

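Unnamed clusters, which entered no comparison, held some of the highest levels, and they were picked here after their values had been seen. A cluster of 100 nuclei led by Fign, Creb5 and Pvalb, with too few enriched markers for a name, had 4907 CPM of Hs3st4 (4764 to 5053), with 3805 to 6491 CPM over the libraries, and 527 CPM of Hs3st5. The same cluster had 339 CPM of Ndst3 and 19.9 CPM of Hs3st2. A cluster of 28 nuclei led by Vmn1r209, Rbm20 and Tbx21 had 1680 CPM of Hs3st5 (1526 to 1847), 257 CPM of Ndst4 and 70.0 CPM of Hs3st3b1 (41.5 to 111), and 3 of the 6 libraries held none of its nuclei. A cluster of 374 nuclei led by Ano1 and Prdm16 had 255 CPM of Hs3st2.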
